A study of Mus musculus with 40 samples.

Results

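The genes described here are 38 genes that copy DNA or supply its building blocks, followed in the right kidney of mice that had lost the left kidney or had a sham operation. They were taken as a fixed list by name: 10 genes of origin licensing, 6 of helicase activation, 6 polymerase and primase genes, 7 of the sliding clamp, its loader and the joining of new strands, 5 of deoxynucleotide supply and 4 of chromatin assembly and the fork checkpoint. The list was chosen with earlier results of these data known. All 38 were among the 28467 genes of the bulk RNA-seq table. At each time point 37 of them passed the filter on low counts, and Orc1 did not pass it at any.

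Replication starts where the origin recognition complex, with Cdc6 and Cdt1, loads the ring of Mcm proteins onto DNA. Cdc45, the GINS proteins and Mcm10 turn that ring into a working helicase, and primase and the polymerases copy both strands behind it. The genes are switched on together as a cell passes from G1 into S phase, many of them by E2F transcription factors, and most cells of the adult kidney divide seldom.

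The kidney that remains after unilateral nephrectomy (UNx) enlarges and takes over the work of the missing one. The study measured RNA in the right kidneys of male C57BL/6 mice aged 8-12 weeks at 24, 48 and 72 h after UNx or sham surgery, from a cross-section of the whole kidney. Bulk RNA-seq had 6 sham and 6 UNx libraries at each time point, each from a different mouse by the mouse numbers of the labels. Nuclei sorted by a DNA stain were sequenced singly from another 2 sham and 2 UNx mice at 24 h. By their labels the bulk libraries of the first time point belong to batch 1 and all later ones to batch 2, so a difference between 24 h and a later time cannot be told apart from the batch. The first nucleus sample of each group was in batch 3 and the second in batch 4. The bulk samples are of whole tissue, in which fewer cells of a type and less RNA per cell cannot be told apart.

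Some libraries stood apart from their group before any gene of the list was considered. Bulk libraries held 14868494 to 24108587 estimated counts. A profile score from 271 pseudogenes, scaled so that the mean of the 48 h and 72 h shams is 0 and the mean of the 24 h shams is 1, lay between -0.06 and 0.10 in every 48 h and 72 h library except UNx replicates 1 to 5 of 48 h, which scored 0.64 to 0.72. Those 5 libraries also had 25.8 to 26.4% of counts from mitochondrially encoded genes, near the 21.5 to 26.7% of the 24 h libraries and above the 13.6 to 16.1% of the other later ones. At 24 h the shams scored 0.96 to 1.04 and the UNx libraries 0.67 to 0.88, without overlap. The labels put these 5 libraries in batch 2. Whether they were handled with the libraries of 24 h, or carry a wrong label, was not tested, so each 48 h value compares libraries as labelled. The 48 h results, and to a lesser degree those of 24 h, are therefore also given with this score in the fit.

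Promoter sequences are shown for 6 genes, chosen after their values were seen, because these genes carry the results below: Mcm5, Mcm6, Cdc6 and Uhrf1 hold letters of the E2F type before the start, and Rrm2 and Tk1, which had large and repeated increases, hold none. Each line is the 250 bases before the start in the RefSeq promoter table of build GRCm38.p6, written 5′ to 3′ on the strand of the gene. Capitals mark any of TTTCCCGC, TTTGGCGC, TTTCGCGC or TTTGCCGC, searched on both strands, where hits may overlap. The stretches lie at chr8:75109259-75109508 (plus strand, Mcm5), chr1:128359706-128359955 (minus strand, Mcm6), chr11:98907901-98908150 (plus strand, Cdc6), chr17:56304063-56304312 (plus strand, the downstream one of 2 Uhrf1 starts in the table), chr12:24708004-24708253 (plus strand, Rrm2) and chr11:117826015-117826264 (minus strand, Tk1).
Mcm5: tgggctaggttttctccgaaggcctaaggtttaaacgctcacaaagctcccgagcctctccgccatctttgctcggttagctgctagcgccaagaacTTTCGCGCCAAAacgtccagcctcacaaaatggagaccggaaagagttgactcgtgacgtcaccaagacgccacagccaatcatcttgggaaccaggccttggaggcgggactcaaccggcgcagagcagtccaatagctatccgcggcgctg
Mcm6: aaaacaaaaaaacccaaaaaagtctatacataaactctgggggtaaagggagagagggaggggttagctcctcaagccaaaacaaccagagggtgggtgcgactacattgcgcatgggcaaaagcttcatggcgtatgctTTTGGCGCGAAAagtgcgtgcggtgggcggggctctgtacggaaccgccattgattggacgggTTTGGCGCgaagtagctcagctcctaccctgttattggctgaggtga
Cdc6: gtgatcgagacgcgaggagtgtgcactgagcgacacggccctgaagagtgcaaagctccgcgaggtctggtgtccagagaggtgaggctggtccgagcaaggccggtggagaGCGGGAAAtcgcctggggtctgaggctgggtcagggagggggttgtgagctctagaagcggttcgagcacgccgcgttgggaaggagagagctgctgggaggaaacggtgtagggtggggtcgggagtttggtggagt
Uhrf1: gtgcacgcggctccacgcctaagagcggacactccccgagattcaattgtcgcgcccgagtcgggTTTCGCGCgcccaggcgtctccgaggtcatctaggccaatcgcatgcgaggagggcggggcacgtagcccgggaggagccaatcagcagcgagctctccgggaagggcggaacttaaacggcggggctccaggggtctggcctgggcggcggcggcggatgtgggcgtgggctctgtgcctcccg
Rrm2: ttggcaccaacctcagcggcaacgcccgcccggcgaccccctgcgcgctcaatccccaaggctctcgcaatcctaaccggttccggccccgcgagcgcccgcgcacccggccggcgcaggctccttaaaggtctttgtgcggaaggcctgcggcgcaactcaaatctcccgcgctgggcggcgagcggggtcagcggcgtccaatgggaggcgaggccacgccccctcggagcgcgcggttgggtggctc
Tk1: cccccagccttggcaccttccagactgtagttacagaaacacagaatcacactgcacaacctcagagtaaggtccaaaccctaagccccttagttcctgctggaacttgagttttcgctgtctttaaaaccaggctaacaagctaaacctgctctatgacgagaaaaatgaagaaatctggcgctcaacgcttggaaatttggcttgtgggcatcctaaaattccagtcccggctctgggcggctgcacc
In Mcm5 the first base of the overlapping hits lay at -153 and -149 from the start, in Mcm6 the hits began at -110, -106 and -47, in Cdc6 at -138 and in Uhrf1 at -185. The window of the upstream Uhrf1 start held no hit. A match is a run of letters and not a shown binding site. How common these letters are among all genes is given at the end.

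Replication genes were called higher after UNx in a larger share than all genes at 24 and 72 h. At 48 h their share was near that of all genes, and 0 were called with the profile score in the fit. None was called lower at any time. At 24 h, 22 of the 37 tested genes were called higher (59.5%), where 14.2% of all 14104 genes tested were called higher, 13.1% lower and 27.3% in either direction. At 48 h the count was 7 of 37 (18.9%), near the 16.9% of all 14280 genes called higher, with 16% called lower and 32.9% in either direction. At 72 h it was 10 of 37 (27.0%), where 1.21% of all 14556 genes were called higher, 0.502% lower and 1.71% in either direction. Calls are at a Benjamini-Hochberg adjusted p under 0.05 over all genes tested, by the quasi-likelihood test of edgeR. Fold changes were above 0 on the log2 scale for 35, 28 and 33 of the 37 genes at 24, 48 and 72 h. Their median log2 fold change was 0.46, 0.21 and 0.30, beside 0.01, -0.04 and -0.00 over all genes tested. Every UNx library lay above every sham library for 8 genes at 24 h, 2 at 48 h and 8 at 72 h, which 5.75%, 6.21% and 1.31% of all genes tested did. The counts rested on single libraries at 2 time points: without sham replicate 4 the 24 h count was 12, and at 48 h it was 12 without sham replicate 4 and 11 without UNx replicate 6. On the lower side 0 of the 37 reached an unadjusted p under 0.05 at any time, by edgeR or by the DESeq2 Wald test.

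**Figure D1:**
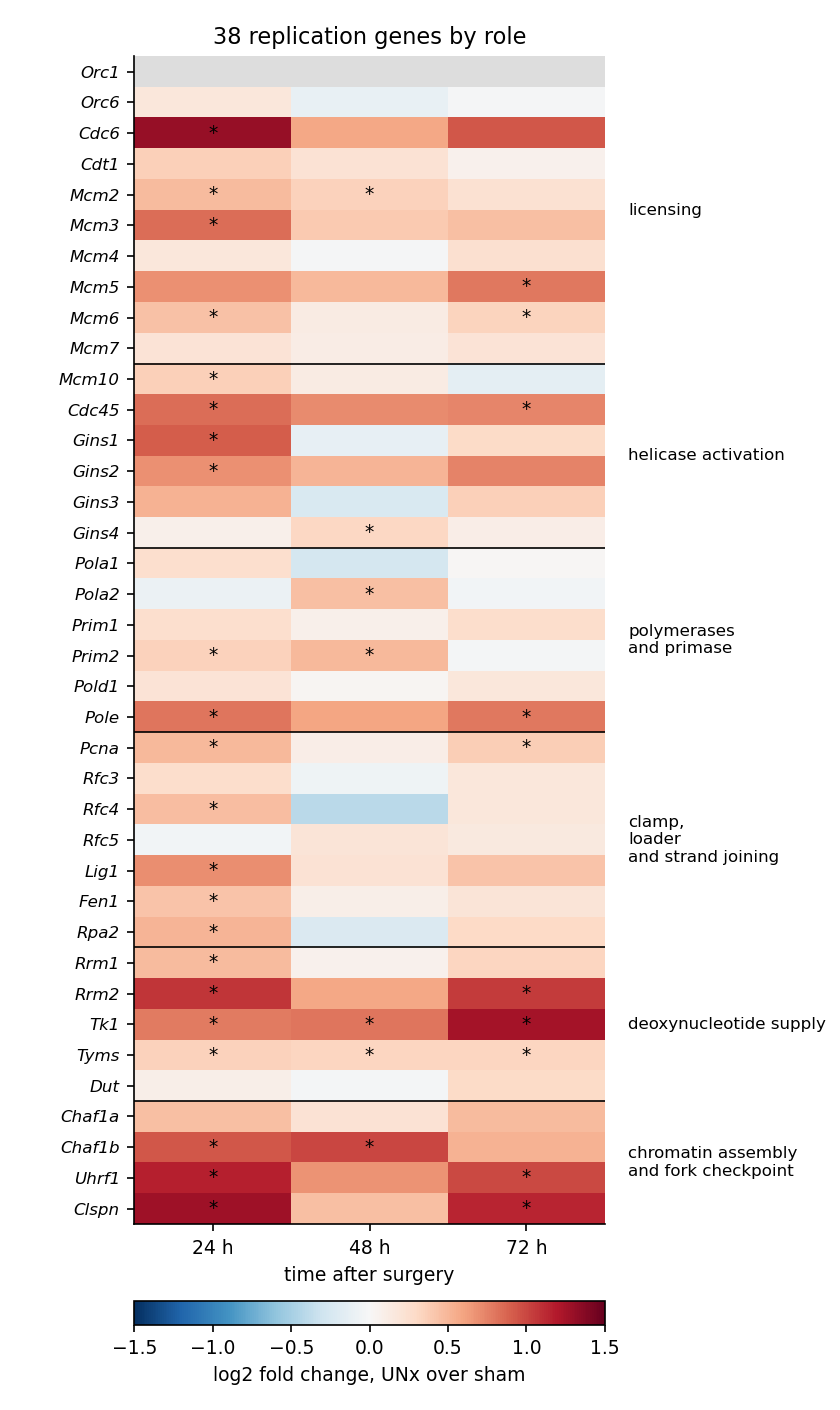
Heat map of the log2 fold change of UNx over sham for the 38 genes (vertical, grouped by role) at 24, 48 and 72 h (horizontal), with a colour scale in log2 units, an asterisk where the adjusted p was under 0.05 and grey where a gene was not tested. The 24 h column holds 22 asterisks, the 48 h column 7 and the 72 h column 10, and all of them are on higher levels after UNx.

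Summed over the 38 genes, sham libraries of 24 h held 206 to 234 CPM (counts per 1000000 counts of the library, scaled by TMM factors within the 12 libraries of a time point; median 217) and UNx libraries 228 to 421 (median 276). At 48 h the sums were 262 to 363 (median 281) in sham and 273 to 467 (median 327) in UNx kidneys. At 72 h they were 241 to 280 (median 273) and 306 to 384 (median 343). Only at 72 h did the 2 groups not overlap. A few libraries set the ends of these ranges. UNx replicate 6 of 24 h was the highest of its group for 34 of 37 genes, UNx replicate 3 of 48 h for 28 of 37, and sham replicate 4 of 48 h, with a sum of 363, for 27 of 37.

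**Figure D2:**
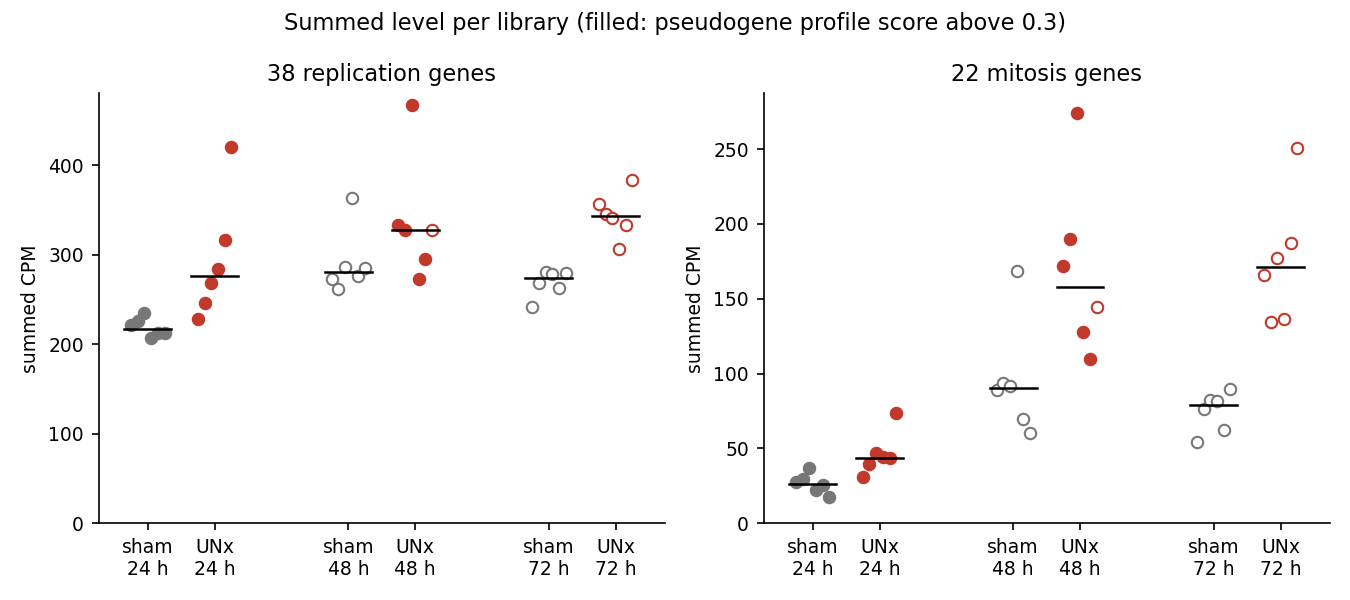
Summed level in CPM (vertical) of the 38 replication genes and of 22 genes of mitosis in each bulk library, by group and time (horizontal), with a line at the median and filled points for libraries with a profile score above 0.3. The replication sums of 72 h UNx libraries (306 to 384) all lie above those of the shams (241 to 280), and filled points make up all of 24 h and 5 of the 6 UNx libraries of 48 h.

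Among the licensing genes, 4 of 9 tested were called higher at 24 h (Mcm6, Mcm3, Cdc6 and Mcm2), 1 at 48 h (Mcm2) and 2 at 72 h (Mcm5 and Mcm6). Their median log2 fold changes were 0.44, 0.22 and 0.24. Mcm6, a subunit of the Mcm ring, ranged from 20.7 to 25.1 CPM (median 23.4) in sham and from 26.3 to 40.2 (median 29.4) in UNx kidneys at 24 h. All UNx libraries were thus above all shams, with a log2 fold change of 0.44 (SE 0.09, edgeR adjusted p = 0.00308). Mcm6 was called at 72 h too, with 22.6 to 26.7 CPM (median 25.8) in sham and 28.5 to 33.6 (median 32.7) in UNx kidneys, again without overlap (0.34, SE 0.06, adjusted p = 0.0135). At 48 h its groups overlapped, at 23 to 31.4 and 25.4 to 39.1 CPM. Mcm3, another ring subunit, had 3.11 to 5.13 CPM (median 4.20) in sham and 4.92 to 12.4 (median 6.86) in UNx kidneys of 24 h. UNx replicate 6 gave the high end, 4 of the 6 UNx libraries were above every sham, and the log2 fold change was 0.83 (SE 0.21, adjusted p = 0.00933).

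Mcm5, also of the ring, was called only at 72 h, which is not a test of a difference between times. Its sham libraries held 4.63 to 7.29 CPM (median 5.99) and its UNx libraries 8.20 to 12.1 (median 10.4) at that time. These groups did not overlap, and the log2 fold change was 0.79 (SE 0.13, edgeR adjusted p = 0.00837). At 24 h Mcm5 was at 5.75 to 9.54 CPM in sham and 5.97 to 24 in UNx kidneys, the top value in UNx replicate 6, and the log2 fold change of 0.69 did not pass the test. Cdc6, which helps to load the ring, is scarce in this tissue, at 0.257 to 0.882 CPM (median 0.67) in sham and 0.694 to 3.70 (median 0.959) in UNx kidneys of 24 h. Of the 6 UNx libraries 5 were above every sham, and the log2 fold change was 1.31 (SE 0.43, adjusted p = 0.0346). This call was lost without UNx replicate 5 or 6 or sham replicate 4, 5 or 6 (adjusted p = 0.0591 to 0.0755). Mcm2 reached 13.4 to 16.7 CPM (median 13.6) in sham and 14.3 to 25 (median 17.1) in UNx kidneys of 48 h, overlapping ranges with a change of 0.34 on the log2 scale (SE 0.12, adjusted p = 0.0366). That call was lost without any 1 of 8 libraries (sham replicate 1, 2, 3, 5 or 6 or UNx replicate 1, 2 or 3), at an adjusted p of 0.054 to 0.0681.

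At 24 h the call of Mcm2 was lost without UNx replicate 5 or 6 or sham replicate 1, 3, 4, 5 or 6. The other licensing genes were called at no time. Mcm7, a ring subunit, lay at 13.1 to 16.6 CPM in sham and 12.4 to 22.1 in UNx kidneys of 24 h, and at 14.4 to 19.4 and 18.2 to 23.6 CPM at 72 h. Mcm4, of the same ring, had 8.14 to 10.6 and 6.89 to 17.4 CPM at 24 h. Cdt1, the loading factor that is destroyed once S phase begins, was at 3.13 to 4.24 and 2.91 to 9.36 CPM at 24 h. Orc6, a subunit of the origin recognition complex, had log2 fold changes of 0.17, -0.11 and -0.02. Orc1, another subunit of that complex, was at 0.413 CPM or less in every library, and was at 0 in at least 1 sham library of 24 h and 1 UNx library of 48 h. The Mcm7 gene spans the microRNA genes Mir25, Mir93 and Mir106b, and Cdt1 lies inside the predicted gene Gm20388 on its own strand, so reads may have been shared there. On the opposite strand, predicted genes cover all of Tk1 (Gm20708, 10567 bases) and of Gins2 (Gm20388, 10672 bases). They also cover 22409 bases of Orc1 (Gm12743) and 3253 of Fen1 (Gm10143). The strand setting is not known, so reads may have been shared in these genes too.

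For helicase activation, 4 of 6 genes were called higher at 24 h (Cdc45, Gins1, Mcm10 and Gins2), 1 at 48 h (Gins4) and 1 at 72 h (Cdc45), with median log2 fold changes of 0.60, 0.22 and 0.32. Cdc45, which travels with the helicase, had 1.08 to 2.15 CPM (median 1.75) in sham and 1.91 to 5.17 (median 2.85) in UNx kidneys of 24 h. The ranges met at the edge, 5 of 6 UNx libraries being above every sham, and the log2 fold change was 0.84 (SE 0.24, edgeR adjusted p = 0.0196). At 72 h Cdc45 was at 1.38 to 2.12 CPM (median 1.68) in sham and 2.01 to 3.46 (median 2.95) in UNx kidneys (0.74, SE 0.15, adjusted p = 0.0244). That 72 h call was lost without UNx replicate 1 or 5 or sham replicate 3, 4 or 6 (adjusted p = 0.0538 to 0.0652). Gins1, of the GINS complex, had 0.405 to 1.18 CPM (median 0.581) in sham and 0.907 to 1.78 (median 1.42) in UNx kidneys of 24 h. Its log2 fold change was 0.91 (SE 0.27, adjusted p = 0.0223), and 5 single libraries (UNx replicates 3 and 5, sham replicates 3, 4 and 5) each ended the call when left out.

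Mcm10, which helps to start the helicase, was at 3.17 to 3.85 CPM (median 3.48) in sham and 3.53 to 5.26 (median 4.53) in UNx kidneys of 24 h. With 5 of 6 UNx libraries above every sham, its log2 fold change was 0.36 (SE 0.11, edgeR adjusted p = 0.0237), and the call was lost without sham replicate 5 or 6. Gins4, the GINS subunit with the highest level per length, was the helicase gene called at 48 h. It had 8.87 to 10.2 CPM (median 9.73) in sham and 10.3 to 13.3 (median 12) in UNx kidneys. The groups did not overlap (log2 fold change 0.31, SE 0.08, adjusted p = 0.00764). At the other times Gins4 ranged from 8.04 to 10.4 and 8.79 to 10.1 CPM at 24 h and from 7.79 to 11 and 9.26 to 11.7 CPM at 72 h, in sham and UNx kidneys. The 24 h call of Gins2 was lost without UNx replicate 6 or sham replicate 4 or 6. Gins2 stood at 1.12 to 2.40 and 2.36 to 3.82 CPM at 72 h, nearly apart, with a log2 fold change of 0.74 that missed the threshold. Gins3 was called at no time, and its log2 fold changes were 0.52, -0.23 and 0.35.

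Of the polymerase and primase genes 2, 2 and 1 of 6 were called higher at 24, 48 and 72 h, with median log2 fold changes of 0.25, 0.26 and 0.09. Prim2, the large subunit of primase, held 2.60 to 3.54 CPM (median 3.49) in sham and 3.79 to 4.87 (median 4.04) in UNx kidneys of 24 h. No library overlapped, and the log2 fold change was 0.35 (SE 0.11, edgeR adjusted p = 0.0317). The call was lost without UNx replicate 5 or 6 or sham replicate 1 or 4 (adjusted p = 0.0506 to 0.0684). At 48 h Prim2 was at 3.31 to 3.80 CPM (median 3.71) in sham and 4.51 to 6.55 (median 5.00) in UNx kidneys, again apart (0.49, SE 0.11, adjusted p = 0.00477). At 72 h its levels overlapped, with 3.17 to 5.65 CPM in sham and 3.39 to 4.07 in UNx kidneys.

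Pole, the catalytic subunit of the leading strand polymerase, was at 2.49 to 3.11 CPM (median 2.69) in sham and 3.76 to 5.43 (median 4.72) in UNx kidneys of 72 h. All UNx libraries were above all shams, with a log2 fold change of 0.79 (SE 0.11, edgeR adjusted p = 0.0034). At 24 h Pole had 1.18 to 3.09 CPM (median 2.48) and 2.27 to 7.65 (median 3.63), with 3 of 6 UNx libraries above every sham (0.81, SE 0.28, adjusted p = 0.0453). Leaving out any 1 of 8 libraries (UNx replicate 4, 5 or 6 or sham replicate 1, 3, 4, 5 or 6) ended that 24 h call, at an adjusted p of 0.0504 to 0.105. Pola2, the second subunit of polymerase alpha, was at 5.09 to 6.25 CPM (median 5.35) in sham and 4.82 to 9.23 (median 7.45) in UNx kidneys of 48 h (0.45, SE 0.14, adjusted p = 0.0271). Its low UNx value was the 1 library with a low profile score. With the 5 high-score libraries left out the log2 fold change was -0.17, and with the score in the fit -0.16. The 48 h call was also lost without UNx replicate 1, 2 or 3 or sham replicate 3 or 6. Pola1 and Prim1, the catalytic subunits of polymerase alpha and primase, and Pold1, that of the lagging strand polymerase, were called at no time. Pola1, for example, was at 4.73 to 5.17 and 5.09 to 6.97 CPM at 24 h and at 5.21 to 7.45 and 3.81 to 6.96 CPM at 48 h.

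Genes of the clamp, its loader and strand joining were called higher in 5 of 7 cases at 24 h (Pcna, Rpa2, Fen1, Rfc4 and Lig1), in none at 48 h and in 1 at 72 h (Pcna). The medians were 0.46, 0.08 and 0.19. Pcna, the sliding clamp that holds the polymerases on DNA, ranged from 18.8 to 22.3 CPM (median 20.7) in sham and from 22.6 to 35.7 (median 29.1) in UNx kidneys of 24 h. The groups did not overlap, and the log2 fold change was 0.48 (SE 0.09, edgeR adjusted p = 0.00171). They were apart again at 72 h, at 28.3 to 35.6 CPM (median 32.1) and 38.3 to 45.2 (median 41) (0.37, SE 0.07, adjusted p = 0.0186). At 48 h they overlapped, at 31 to 45.1 CPM (median 32.8) in sham and 30.6 to 47.7 (median 36.5) in UNx kidneys, and sham replicate 4 gave the 45.1.

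Rpa2, a subunit of the protein that coats single-stranded DNA, had 3.59 to 4.19 CPM (median 3.99) in sham and 4.52 to 7.51 (median 5.49) in UNx kidneys of 24 h, without overlap (log2 fold change 0.51, SE 0.13, edgeR adjusted p = 0.00766). Later its ranges overlapped, with log2 fold changes of -0.21 at 48 h and 0.30 at 72 h. Fen1, the nuclease that trims Okazaki fragments, was at 3.44 to 4.57 CPM (median 4.23) and 4.72 to 6.77 (median 5.34) at 24 h, also apart (0.43, SE 0.12, adjusted p = 0.0148). Rfc4, of the clamp loader, was at 1.13 to 1.62 CPM in sham and 1.77 to 2.10 in UNx kidneys of 24 h, without overlap. At 48 h it turned to 3.09 to 4.22 CPM in sham and 1.69 to 5.29 in UNx kidneys, where UNx replicate 6 held the 5.29 and the other 5 were lower. Lig1, the ligase that seals the fragments, had 3.54 to 5.84 and 4.49 to 12.8 CPM at 24 h. The 24 h call of Rfc4 was lost without sham replicate 1 or 4, and that of Lig1 without sham replicate 4, 5 or 6. Rfc3 and Rfc5, the other loader subunits of the list, were called at no time, and their log2 fold changes lay between -0.06 and 0.27.

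Deoxynucleotide supply held the genes with the most repeated calls: 4 of 5 were called higher at 24 h, 2 at 48 h and 3 at 72 h, with medians of 0.48, 0.33 and 0.32. Tk1, the salvage kinase for thymidine, and Tyms, which makes thymidylate, were the 2 genes of the 38 called at all 3 times. With the profile score in the fit neither was called at 24 h (edgeR adjusted p = 0.0559 for Tk1 and 0.673 for Tyms). At 72 h that fit called Tk1 but not Tyms (edgeR adjusted p = 0.174). Neither 48 h call held with the profile score in the fit (log2 fold change 0.32 for each, edgeR adjusted p = 0.694 for Tk1 and 0.382 for Tyms) or without UNx replicates 1 to 5 (0.36 and 0.31, adjusted p = 0.676 and 0.493). Tk1 ranged from 2.56 to 5.18 CPM (median 4.20) in sham and from 4.21 to 10.5 (median 6.19) in UNx kidneys of 24 h (log2 fold change 0.77, SE 0.22, edgeR adjusted p = 0.0154). At 48 h it was at 4.75 to 9.76 CPM (median 5.50) and 7.78 to 15.2 (median 10.5), overlapping through sham replicate 4 (0.80, SE 0.21, adjusted p = 0.0115). At 72 h the groups were apart, at 3.91 to 6.30 CPM (median 4.34) and 7.45 to 13.8 (median 11.4), with a change of 1.25 on the log2 scale (SE 0.15, adjusted p = 0.00259). Tyms rose by less. Its UNx medians were 13.6, 14.3 and 14.7 CPM beside sham medians of 11, 10.7 and 11.5, and its log2 fold changes 0.35 (SE 0.10, adjusted p = 0.0148), 0.33 (SE 0.09, adjusted p = 0.0168) and 0.32 (SE 0.07, adjusted p = 0.032). The 72 h call of Tyms was lost without any 1 of 8 libraries (UNx replicate 1, 2, 4 or 5 or sham replicate 3, 4, 5 or 6), at an adjusted p of 0.0508 to 0.0773.

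Rrm2, the inducible subunit of ribonucleotide reductase, had 2.48 to 5.57 CPM (median 4.56) in sham and 6.15 to 14.7 (median 8.84) in UNx kidneys of 24 h. The groups were apart, with a log2 fold change of 1.07 (SE 0.22, edgeR adjusted p = 0.00239). They were apart at 72 h too, at 6.97 to 10.1 CPM (median 8.99) in sham and 13.8 to 23 (median 17.9) in UNx kidneys (1.05, SE 0.13, adjusted p = 0.00259). At 48 h they overlapped, at 7.81 to 19.9 CPM (median 10.2) and 10.7 to 28.5 (median 15.8), sham replicate 4 holding the 19.9, and the log2 fold change of 0.58 did not pass the test. Rrm1, the partner subunit that is present through the cycle, was at 9.50 to 14.2 and 12.3 to 22.8 CPM at 24 h and at 14.5 to 18.2 and 17.7 to 24.6 CPM at 72 h. It was called at 24 h, and the call was lost without UNx replicate 5 or sham replicate 3, 4 or 5 (edgeR adjusted p = 0.0522 to 0.0558). Dut, which keeps uracil out of DNA, was called at no time and had log2 fold changes of 0.09, -0.03 and 0.29.

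**Figure D3:**
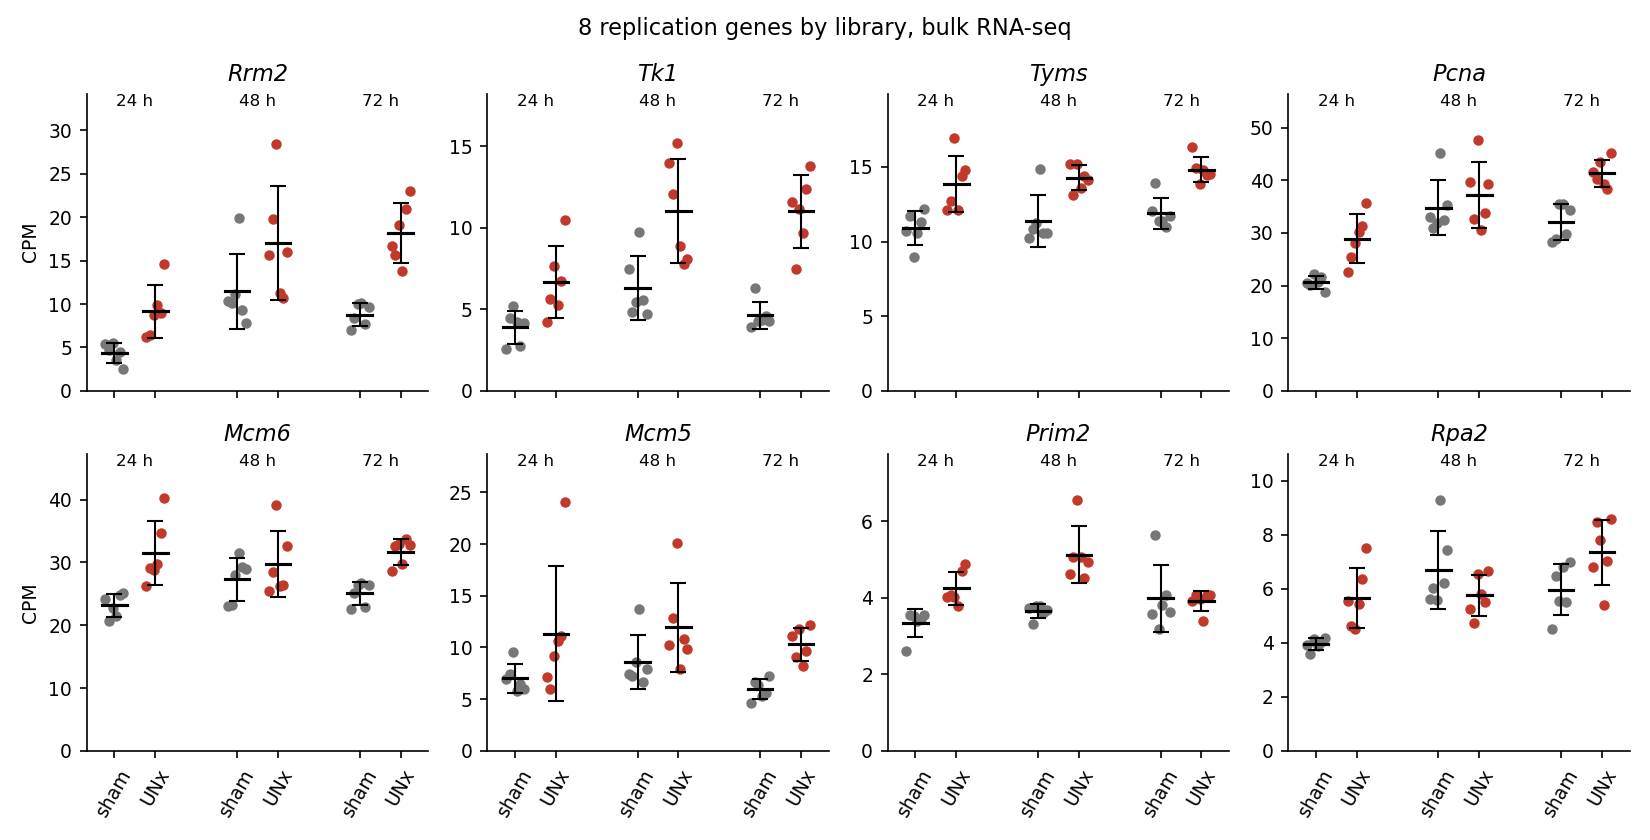
Level in CPM (vertical) of Rrm2, Tk1, Tyms, Pcna, Mcm6, Mcm5, Prim2 and Rpa2 in each of the 36 bulk libraries, by group and time (horizontal), with a line at the mean and bars of 1 SD (n = 6). Rrm2, Tk1, Pcna, Mcm6 and Mcm5 have UNx libraries wholly above the shams at 72 h, while Prim2 has them so at 24 and 48 h and Rpa2 at 24 h.

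The chromatin and checkpoint genes had the largest medians, 1.05 at 24 h, 0.56 at 48 h and 0.76 at 72 h on the log2 scale, over only 4 genes, of which 3, 1 and 2 were called higher. Chaf1b, a subunit of the chaperone that places histones behind the fork, was at 1 to 1.39 CPM (median 1.28) in sham and 1.57 to 4.19 (median 2.18) in UNx kidneys of 24 h, without overlap (0.93, SE 0.23, edgeR adjusted p = 0.00781). At 48 h it had 1.40 to 3.16 CPM (median 2.02) and 2.82 to 6.86 (median 3.53), overlapping (1.00, SE 0.26, adjusted p = 0.00956). Clspn, which passes the stalled fork signal to the checkpoint, had 0.295 to 0.937 CPM (median 0.725) in sham and 0.786 to 3.61 (median 1.41) in UNx kidneys of 24 h (1.27, SE 0.35, adjusted p = 0.0137). At 72 h its groups were apart, at 0.652 to 1.36 CPM (median 0.972) and 1.66 to 2.52 (median 2.25) (1.14, SE 0.19, adjusted p = 0.0117).

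Uhrf1, which brings the maintenance DNA methyltransferase to newly copied DNA, was at 2.29 to 5.34 CPM (median 3.78) in sham and 5.71 to 8.49 (median 7.38) in UNx kidneys of 72 h, apart, with a log2 fold change of 0.99 (SE 0.19, edgeR adjusted p = 0.0189). Without sham replicate 6 that adjusted p was 0.0558. At 24 h it had 2.07 to 5.57 CPM (median 3.36) and 3.52 to 17.4 (median 6.64), with 4 of 6 UNx libraries above every sham (1.17, SE 0.36, adjusted p = 0.0236). The 24 h call was lost without UNx replicate 6 or sham replicate 4, 5 or 6 (adjusted p = 0.0507 to 0.0545). Chaf1a, the large subunit of the histone chaperone, was called at no time. It was at 3.59 to 6.23 CPM in sham and 6.19 to 8.31 in UNx kidneys of 72 h.

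Over the 3 times, 25 of the 37 tested genes were called at least once: 2 at all times, 10 at 2 times and 13 at 1. Of the 25, 9 were called at both 24 and 72 h, 5 at both 24 and 48 h and 2 at both 48 and 72 h. The 12 never called were Orc6, Cdt1, Mcm4, Mcm7, Gins3, Pola1, Prim1, Pold1, Rfc3, Rfc5, Dut and Chaf1a. At the single times 27.3, 32.9 and 1.71% of all genes tested were called in either direction at 24, 48 and 72 h. The share of all genes called at least once was not computed, so the 25 have no such share beside them. With the profile score in the fit 0 of the 37 were called at 48 h. Each time point had its own sham mice.

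Divided by the exon length of the gene in the GENCODE M21 annotation (union of exons), the 72 h sham means fell from Pcna at 13.4 CPM per kb (SD 1.42, n = 6), Gins4 at 7.46 (SD 0.884) and Mcm6 at 5.37 (SD 0.397) down to Pole at 0.243 (SD 0.0209), Cdc6 at 0.154 (SD 0.0701), Clspn at 0.138 (SD 0.0412) and Orc1 at 0.0381 (SD 0.0256). Dut at 4.28 (SD 0.477) and Mcm7 at 4.03 (SD 0.423) did not differ beyond their spread, and neither did Cdc6 and Clspn. The scarce genes of this order are those where few counts set the precision.

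Whether the effect of UNx differed between times was tested in 1 fit over all 36 libraries. Between 24 and 48 h, 5 of the 37 genes differed, where 37% of all 15093 genes tested did (19.3% with the later effect higher and 17.7% lower). The later effect was lower for Rpa2 (by -0.70, SE 0.19, edgeR adjusted p = 0.00445), Pola1 (-0.49, SE 0.15, adjusted p = 0.0088), Gins1 (-1.01, SE 0.32, adjusted p = 0.0114) and Rfc4 (-0.83, SE 0.27, adjusted p = 0.0147), and higher for Pola2 (0.57, SE 0.18, adjusted p = 0.0127). Both of the last values changed sign without UNx replicates 1 to 5 of 48 h, to 0.11 for Rfc4 and -0.07 for Pola2, and none of the 5 genes was then called. Between 48 and 72 h only Prim2 differed (-0.53, SE 0.16, adjusted p = 0.0203), beside 14.6% of all genes (5.86% higher and 8.78% lower). Between 24 and 72 h edgeR called 0 of the 37 and gave 2 at an unadjusted p under 0.05, beside 4.15% of all genes called (2.74% higher and 1.41% lower). No other tool was run on these differences. The difference between 24 h and later times cannot be told apart from the batch.

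With the profile score of each library as a covariate, the calls at 24 h and 72 h were fewer and those at 48 h ended. At 24 h 12 genes were called higher, where 0.567% of all genes were called in either direction and 0.425% higher. Of the 22 genes called without the score 10 stayed called, and Mcm4 and Mcm5 were called only with it. Rrm2 (edgeR adjusted p = 0.0791), Tk1 (0.0559), Uhrf1 (0.0588) and Tyms (0.673) were among those lost. All 37 fold changes were above 0 with a median of 1.07. The score and the group went together at 24 h without overlap, so this fit extrapolates between them. Among the UNx libraries of 24 h replicate 6 scored 0.88 and the others 0.67 to 0.71. Replicate 6 was also the highest of its group for 34 of 37 genes. How far the larger median rests on that library was not tested. At 48 h edgeR called 0 of the 37 and 0% of all genes with the score in the fit, with 2 of the 37 at an unadjusted p under 0.05. Without UNx replicates 1 to 5 of 48 h it also called 0 of the 37, with 3 at an unadjusted p under 0.05, and no other tool was run on either fit. At 72 h, where all scores lay near 0, 8 genes were called (Uhrf1, Mcm5, Pole, Rrm2, Tk1, Mcm6, Mcm3 and Clspn), beside 0.598% of all genes in either direction and 0.563% higher. The part of the profile in the 24 h and 48 h results was not tested further.

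A wider set held 64 other replication genes, listed for their function but with earlier results of these data known. At 24 h 17 of 60 tested (28.3%, beside 14.2% of all genes) were called higher and 4 lower (Pold3, Pold4, Ssrp1 and Supt16), with a median log2 fold change of 0.16. At 48 h 10 of 62 (16.1%, beside 16.9% of all genes) were called higher and 5 lower (Orc4, Mcmbp, Rfc1, Rnaseh2a and Nasp), with a median of 0.09. At 72 h 5 of 63 (7.94%, beside 1.21% of all genes) were called higher and none lower (median 0.11): Ticrr, Hells, Esco2, E2f1 and Ccna2. With the profile score in the fit 4 of these genes were called at 24 h, 0 at 48 h and 2 at 72 h, and without UNx replicates 1 to 5 of 48 h 0 were called at 48 h. Ctps, which makes cytidine triphosphate, was at 17.7 to 21.9 CPM in sham and 24.5 to 35.1 in UNx kidneys of 24 h, apart (0.59, SE 0.08, edgeR adjusted p = 0.00023). Pole4, a small subunit of the leading strand polymerase, was apart as well, at 9.60 to 13 and 15.5 to 18.9 CPM (0.60, SE 0.08, adjusted p = 0.00018). At 48 h Pold4 and Pold2, accessory subunits of the lagging strand polymerase, had log2 fold changes of 0.62 (SE 0.10, adjusted p = 0.000953) and 0.73 (SE 0.13, adjusted p = 0.00145). Pold4 was thus called lower at 24 h and higher at 48 h.

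Within that set, 10 genes of S phase entry (E2f1, E2f2, E2f3, E2f7, E2f8, Ccne1, Ccne2, Ccna2, Cdk2 and Cdc25a) had larger medians than the other groups. Of the tested ones 5 of 9, 6 of 10 and 2 of 10 were called higher at 24, 48 and 72 h, with medians of 0.68, 0.82 and 0.78. E2f1, a transcription factor for replication genes, was called at all times. It was at 3.22 to 4.42 CPM (median 3.88) in sham and 4.97 to 8.93 (median 6.69) in UNx kidneys of 72 h, apart (0.86, SE 0.14, edgeR adjusted p = 0.00974). Ccna2, the cyclin of S and G2 phase, had 2.89 to 6.01 CPM (median 4.53) and 8.94 to 16.5 (median 11.9) at 72 h, apart (1.39, SE 0.19, adjusted p = 0.00383). The 72 h count of the wider set rested on single libraries, at 12 without UNx replicate 6, 2 without sham replicate 2 or UNx replicate 1, 3 or 5, and 3 without sham replicate 6.

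Genes of mitosis, the phase after replication, were called higher in 11 of 18 tested at 24 h, 13 of 22 at 48 h and 19 of 22 at 72 h (61.1, 59.1 and 86.4%, beside 14.2, 16.9 and 1.21% of all genes), none lower, with medians of 0.85, 0.94 and 1.27. Their summed level was 17.4 to 36.8 CPM in sham and 30.8 to 73.7 in UNx kidneys of 24 h, 60.3 to 169 and 110 to 274 at 48 h, and 54.1 to 89.7 and 134 to 251 at 72 h. The groups were apart only at 72 h. Aurkb, a kinase of chromosome segregation, had a log2 fold change of 1.83 (SE 0.37, edgeR adjusted p = 0.0023) and Kif11, a spindle motor, 1.04 (SE 0.22, adjusted p = 0.00365) at 24 h. At 48 h Ube2c, of the complex that ends mitosis, was at 1.50 (SE 0.25, adjusted p = 0.000887) and Tpx2, a spindle assembly factor, at 1.27 (SE 0.24, adjusted p = 0.00192). Mki67, the proliferation marker, was at 9.64 to 16.9 CPM (median 15.2) in sham and 26.3 to 50.7 (median 33.6) in UNx kidneys of 72 h, apart (1.29, SE 0.17, adjusted p = 0.00285). Top2a, which untangles copied chromosomes, was at 5.84 to 10.7 and 14.7 to 27.2 CPM then (1.23, SE 0.18, adjusted p = 0.00541). Without UNx replicate 6 the 24 h count was 7. With the profile score in the fit it was 0 at 24 h, 0 at 48 h and 17 at 72 h, and without UNx replicates 1 to 5 of 48 h the 48 h count was 0. The 2 libraries of 48 h highest in the replication sum, UNx replicate 3 and sham replicate 4, were also the highest of their groups in this one, at 274 and 169 CPM.

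Markers of the kidney's own and of other cell types were read in the same fits. At 24 h 2 of 5 red blood cell genes, 1 of 5 tested fibroblast genes, 1 of 8 proximal tubule genes and 1 of 4 thick ascending limb genes were called higher. Lower were 1 of 5 podocyte genes, 1 of 4 thick ascending limb genes and 1 of 4 intercalated cell genes, and no endothelial, macrophage, lymphocyte or neutrophil gene was called. Both tested urothelial genes, Upk1a and Upk1b, reached an unadjusted p under 0.05 on the higher side, with a median log2 fold change of 1.63, but were not called. Urothelial genes summed to 0.826 to 7.33 CPM in sham and 1.39 to 41.5 in UNx kidneys of 24 h, with 41.5 in UNx replicate 4 and 14.1 in UNx replicate 6. Without UNx replicate 4 the count of replication genes called at 24 h was 21, and without UNx replicate 6 it was 16. At 48 h 3 of 6 fibroblast genes, 2 of 5 red blood cell genes, 2 of 8 proximal tubule genes, 1 of 4 intercalated cell genes and 1 of 3 distal convoluted tubule genes were called lower. Called higher then were 3 proximal tubule genes, 2 of 4 thick ascending limb genes, 1 of 5 podocyte genes and 1 of 7 macrophage genes. At 72 h edgeR called 0 marker genes, and all 5 red blood cell genes reached an unadjusted p under 0.05, on the lower side. Summed, the red blood cell genes were at 110 to 176 CPM in sham and 136 to 196 in UNx kidneys of 24 h, at 416 to 957 and 255 to 642 at 48 h and at 487 to 1195 and 365 to 595 at 72 h. Fibroblast genes summed to 64.3 to 110 and 86.9 to 201 CPM at 24 h, to 155 to 249 and 84.2 to 231 at 48 h and to 159 to 210 and 151 to 223 at 72 h. Adipocyte genes reached 202 CPM in UNx replicate 4 of 24 h and 99.7 in a sham of 48 h. The proximal tubule markers, which mark most of the kidney cortex, summed to 11329 to 16154 CPM over the 36 libraries, and those of the adrenal cortex to 1.07 CPM or less. Their part in the 24 h and 48 h results was not tested.

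In the nuclei of 24 h the replication genes were measured thinly and no difference between groups was called. The 16500 nuclei held 42291 UMIs of the 38 genes, or 253 per 1000000 UMIs of the nuclei (UMI CPM), and 36.1% of them came from Pola1, Prim2 and Tyms. Summed per mouse, the level was 249 and 237 UMI CPM in the sham mice and 288 and 225 in the UNx mice, and these ranges overlapped. Over all nuclei edgeR called 0 of 38 genes, as it did 0% of all 19975 genes tested, with 0 of the 38 at an unadjusted p under 0.05, and the DESeq2 Wald test gave 0 and 0. With the batch as a block, which pairs the mice, edgeR again called 0 of 38, beside 1.04% of all genes, and 2 reached an unadjusted p under 0.05: Mcm6 (log2 fold change 0.62, adjusted p = 0.121) and Orc1 (-0.72, adjusted p = 0.159). Without the block the fold change was above 0 for 31 of 38 genes with a median of 0.10, beside -0.01 over all genes tested. It was above 0 for 19 of the 22 genes called in bulk at 24 h. The genes share the same mice, and agreement with bulk was not tested. With 2 mice a group, differences of the size seen in bulk were not detectable at this depth.

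Classes of nuclei are those of the authors' deposited annotation, and their names were checked against marker lists. Of the classes with a list for their cell type, PTS3, named for the third proximal tubule segment, did not have its own list highest: it held 3.14 times the macrophage marker level of all nuclei and 1.16 times that of the proximal tubule. The thin limb classes and PEC had no list of their own, and DTL1 (4.00 times) and DTL2 (2.36 times) were highest in the macrophage list and PEC (4.21 times) in the podocyte list. These classes are therefore called by the authors' names only. The 2 endothelial classes, EC1 and EC2, held 17.3 and 12.6 times the endothelial marker level of all nuclei, and podocytes (Podo) 36.8 times the podocyte level. Of 23 classes with at least 10 nuclei in each mouse, 21 had a replication gene past the filter, giving 249 pairs of gene and class. The edgeR test called none of these pairs and gave 1 at an unadjusted p under 0.05 (13 with the batch as a block), and the DESeq2 Wald test gave 0 and 0.

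The level of the 38 genes differed between classes by a few times. Macrophages (Macro) stood highest at 983 UMI CPM, but over 23 nuclei that came only from the first mouse of each group, at 1150 (sham) and 788 (UNx). Over all mice together PEC was at 414, EC2 at 394, T cells at 384, CPC at 368, EC1 at 355, the urothelial class (Uro) at 336 and the ascending thin limb class (ATL) at 329, while podocytes, which seldom divide, were at 222 and the distal convoluted tubule (DCT) at 201. The order was not the same in each mouse. PEC was at 661 in sham mouse 1, on 31 nuclei, and at 336, 369 and 213 in sham 2, UNx 1 and UNx 2. The ranking covered 28 classes in sham 1, 25 in sham 2, 25 in UNx 1 and 26 in UNx 2. It left out Macro in UNx 1, which at 788 was above every class ranked in that mouse. Among the ranked classes the highest was Macro in sham 1 (1150), Uro in sham 2 (342), CPC in UNx 1 (482) and ATL in UNx 2 (322). T cells, at 384 over all mice together, were the lowest ranked class in UNx 1 (208). The endothelial levels owed much to 1 gene: Pola2 alone was at 94.1 in EC2 and 90.7 in EC1, beside 10.8 over all nuclei. All 38 genes together were at 253 over all nuclei, so these ranks do not describe the list as a whole. The endothelial levels also went with the batch: in EC1 the 2 mice of batch 3 were at 387 and 440 and those of batch 4 at 259 and 304. In EC2 they were at 477 and 457 and at 276 and 257.

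**Figure D4:**
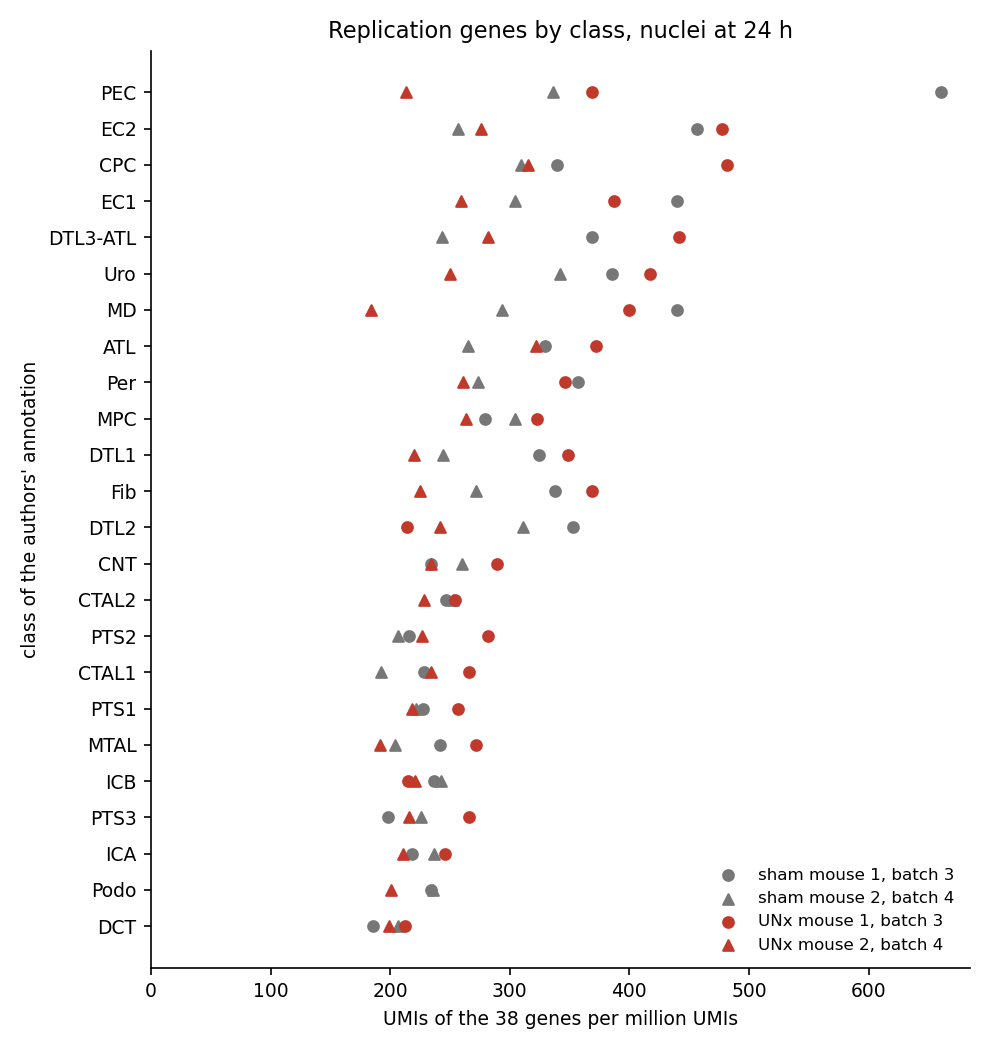
UMIs of the 38 genes per 1000000 UMIs (horizontal) in each class of nuclei (vertical) for each of the 4 mice (circles for batch 3 and triangles for batch 4). Classes are shown where every mouse had at least 10 nuclei, with Podo added. PEC reaches 661 in sham mouse 1, and the mice of batch 3 lie above those of batch 4 in EC1 and EC2.

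Single genes differed in the classes that held them. Pola2 was at 94.1 UMI CPM in EC2 and 90.7 in EC1, beside 10.8 over all nuclei and 10.7 in podocytes. Each mouse showed it: EC2 was at 103 and 37.8 in sham and 138 and 55.8 in UNx mice, and EC1 at 146, 64.6, 105 and 32.1 in the same order. Gins3 was at 41.8 in ATL and 32.7 in the class DTL3-ATL, beside 6.54 over all nuclei, and in ATL the 4 mice were at 44.1, 23.4, 53 and 39.5. Orc1 was at 19.5 in EC2 and 22.7 in Macro beside 5.52 over all nuclei. Clspn was at 7.95 in CPC beside 0.622 over all nuclei, on 26 UMIs. In PTS3, on 597 UMIs, Mcm6 was at 23.6, with 18.1 and 16 in the sham and 28.3 and 28.3 in the UNx mice. Its level in Macro was 45.5. The Macro levels of Orc1 and Mcm6 rest on few UMIs of few nuclei and do not rank that class. Mcm6 and PTS3 were picked after the values were seen, and the pair was not called. A nucleus read at the 3′ end of transcripts holds unspliced RNA too, so these levels need not follow those of the bulk tissue.

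Nuclei with several of the genes at once were counted after each nucleus was thinned to 3000 UMIs, which left out 282 shallower ones (187, 0, 92 and 3 in sham 1, sham 2, UNx 1 and UNx 2). At least 3 of the 38 genes were found in 3.26 and 2.39% of the sham and 4.33 and 2.38% of the UNx nuclei, beside 2.19% of podocytes (exact interval 0.454 to 6.27%). Before thinning the shares were 19.6 and 31.7% in sham and 28.7 and 26.1% in UNx, and of the shams the deeper one had the larger share. The thinned difference of UNx over sham was 0.53 percentage points, where the larger SD within a group was 1.38, and with 2 against 2 mice the smallest exact permutation p is 0.33. That SD includes the difference between batches. Within batch 3 the shares were 3.26% in sham and 4.33% in UNx, and within batch 4 they were 2.39 and 2.38%. The interval of the podocyte share covers the shares of all 4 mice. It is wide and holds only the counting error of nuclei, so it cannot show whether the mice differ from podocytes.

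A small number of nuclei held many of the genes. At least 7 of the 38 after thinning were found in 19 of 16218 nuclei: 5 and 3 in the sham and 9 and 2 in the UNx mice. The number 7 was set after the counts were seen, and 8 nuclei had 6 genes and 7 had exactly 7, so the edge is not sharp. These 19 were spread over 9 classes, with 5 in CPC, 4 in PTS1, 2 each in PTS2, CNT and DCT, and 1 each in PEC, Uro, Fib and Macro. Of them 9 also held at least 3 genes of mitosis, as 16 nuclei of all 16218 did, and 4 held none. The fullest was a CPC nucleus of UNx mouse 1 with 13 of the genes after thinning and 24 before. Numbers this small do not rank the groups, and doublets were not called.

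The RefSeq promoter table held 32 of the 38 genes, in 37 windows from 250 bases before to 50 after a start (Gins1, Gins2, Gins4, Mcm4, Pole and Prim2 were not matched). The last 30 bases of the window lay in an annotated transcript for 31 of the 37 windows. Any of the E2F-type words of 8 letters was found in 14 of the 32 genes (43.8%), beside 2.60% of all 27025 genes of the table, 31.4% of the wider replication genes and 5.26% of the mitosis genes. With the words of 7 letters (TTCCCGC or TTGGCGC) the share was 56.2% beside 7.79% of all genes. The word TTTGAA, of the type found in promoters of mitosis genes and searched after the other values were seen, was in 12.5% of the 32, 73.7% of the mitosis genes and 20.2% of all genes, and CCAAT was in 62.5%, 84.2% and 41.1%. The E2F-type words of 8 letters were in 6 of 18 matched genes called at 24 h and in 7 of 13 not called, at 48 h in 0 of 5 and 13 of 26, and at 72 h in 4 of 9 and 9 of 22.

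**Figure D5:**
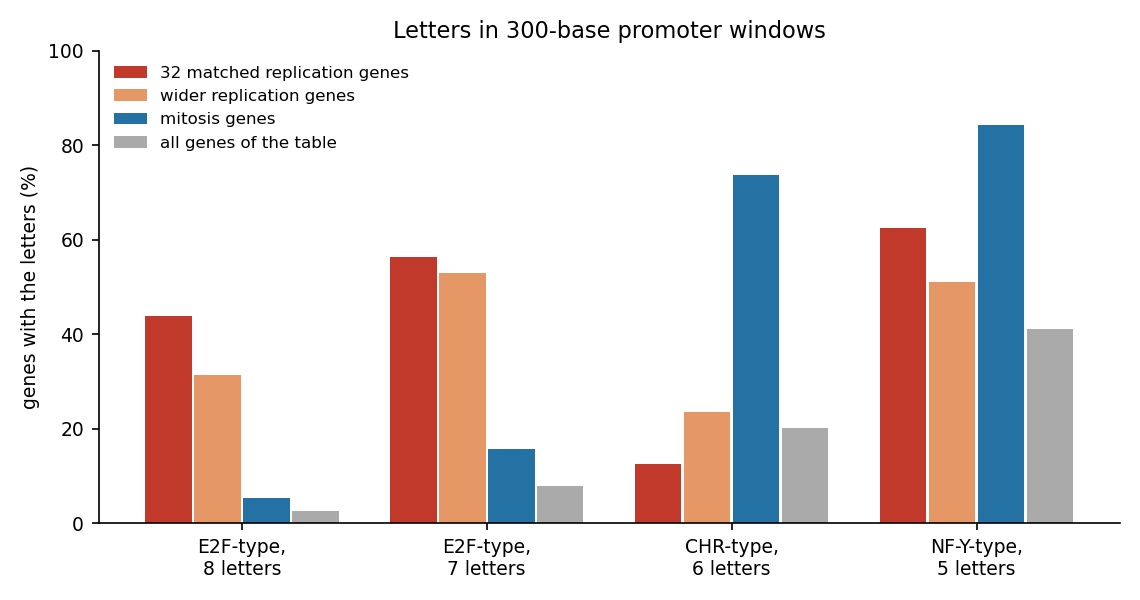
Share of genes in percent (vertical) whose promoter window holds each kind of letters (horizontal), for the 32 matched replication genes, the wider replication genes, the mitosis genes and all genes of the table. The E2F-type words of 8 letters are in 43.8% of the 32 genes and 2.60% of all, and the CHR-type word is in 73.7% of the mitosis genes.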

How the data were processed

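Cross-sections of the right kidney were sequenced as bulk RNA and sorted nuclei as single-nucleus RNA. The bulk table holds estimated counts deposited by the authors; Salmon 1.5.0, FastQC 0.11.8, R 4.10 and build GRCm39 are named in the submitters' processing notes. The nucleus table holds estimated UMI counts per gene and nucleus deposited by the authors, for which the same notes name alevin, Seurat and mm10. The sources used here do not give settings, filters, strand or doublet removal. Of the bulk values 34.1% were not whole, and of the nucleus values above 0 13.9% (tolerance 1e-06), so values were rounded before testing.

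Gene IDs were named through GENCODE M21 (28340 of 28467). The 38 genes and the other lists were chosen with earlier results of these data known. Each time point was fitted alone with edgeR 4.0.16 in R 4.3.3 (filterByExpr, TMM, quasi-likelihood test), 6 against 6 libraries, with p-values adjusted over all genes tested. SE is the size of the log2 fold change divided by the root of F. Effects at different times were compared in 1 fit over 36 libraries. Full statistics are given for called genes, at most the 3 with the lowest p per role and time, and for the 2 of the wider replication and mitosis lists; others are given by level and counts. Each library is 1 mouse by its label, and p-values measure the spread between these mice. Replicates were checked for repeats, and over 90 pairs chi-square per gene was at least 5.04. On simulated counts for bulk 24 h (14000 genes), 68 of 100 changes of 0.5 and 95 of 100 changes of 1 on the log2 scale were recovered. For 48 h (14166 genes) the numbers were 44 and 94, and for 72 h (14454 genes) 57 and 96.

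Nuclei had 1755 to 100017 UMIs (median 8297), and 18 barcodes occurred in at least 2 libraries. Counts were added up for each mouse, in all nuclei and in each class. The labels give mice with the same number 1 batch, and their deviations from the group means correlated (r = 0.81 over 19975 genes), so the batch is a pairing there. On simulated sums of all nuclei (19553 genes) 2 of 100 changes of 1 and 30 of 100 of 2 on the log2 scale were recovered. No doublet caller was run. Nuclei were thinned to 3000 UMIs with Python 3.11.15. Intervals are 95% exact binomial (scipy 1.17.1) and cover counting error only.

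Alternatives were DESeq2 size factors, the DESeq2 1.42.0 Wald test, no filter on low counts, no mitochondrially encoded genes, the replicate number as a block, the profile score as a covariate, all 36 libraries in 1 fit, libraries left out, other counts of genes per nucleus and shorter promoter words. The words TTTGAA and CCAAT and the count of at least 7 genes per nucleus were added after the data were seen.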

Additional observations from a re-analysis of the deposited data

Results flagged for a closer look

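The CPM of 1 library lay far from the other 5 of its group, by the gap to its nearest neighbour over the whole range (above 0.625, Dixon's value for 6 samples), in 29 of 222 groups of a gene, treatment and time. Chance gives about 1 in 20 such groups, and the genes of a library are not independent.

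UNx replicate 3 of 48 h was the high library for 8 genes: Mcm2 at 25.0 CPM, Mcm3 at 12.7, Cdc45 at 5.99, Prim2 at 6.55, Pole at 9.14, Rfc5 at 11.8, Lig1 at 14.4 and Rrm1 at 25.8. The other 5 UNx libraries had 14.3 to 17.8 CPM of Mcm2 and 15.2 to 18.7 of Rrm1. Sham replicate 4 of 48 h was the high library for 7: Mcm2 at 16.7 CPM, Mcm5 at 13.7, Pcna at 45.1, Rrm2 at 19.9, Tyms at 14.9, Chaf1a at 8.30 and Clspn at 2.31. The other 5 shams had 31.0 to 35.2 CPM of Pcna and 7.81 to 11.2 of Rrm2. UNx replicate 6 of 24 h was the high library for 4 genes, with Cdc6 at 3.70 CPM, Mcm5 at 24.0, Lig1 at 12.8 and Clspn at 3.61.

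The other 10 stood in several libraries. High were Gins2 in sham replicate 3 of 24 h (2.04 CPM), Pola2 in sham replicate 2 of 48 h (6.25), Rfc4 in UNx replicate 6 of 48 h (5.29), Lig1 in UNx replicate 6 of 72 h (12.3), and Prim2 (5.65) and Tk1 (6.30) in sham replicate 2 of 72 h. Low were Prim2 in sham replicate 1 of 24 h (2.60), Gins4 in sham replicate 3 of 72 h (7.79), and Prim2 (3.39) and Pold1 (4.44) in UNx replicate 4 of 72 h. Why these libraries stood apart was not tested.

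The effect of UNx differed between times for 6 genes by the test of the difference itself. These were 5 of the 37 between 24 and 48 h, beside 37% of all genes, and 1 between 48 and 72 h, beside 14.6%. With the profile score in the fit 0 were called in either comparison, and the values of Rfc4 and Pola2 changed sign. From 24 to 48 h, on the log2 scale, it moved by -0.70 for Rpa2, -0.49 for Pola1, 0.57 for Pola2, -1.01 for Gins1 and -0.83 for Rfc4. From 48 to 72 h it moved by -0.53 for Prim2. A difference between 24 and 48 h cannot be told apart from the batch.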

How the results depend on the processing

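Counts of the 38 genes called (22, 7 and 10 at 24, 48 and 72 h) kept within 1.5 times under DESeq2 size factors, without the filter on low counts and without mitochondrially encoded genes. The DESeq2 Wald test called 21, 11 and 15, and 1 fit over all 36 libraries 21, 11 and 5. With the replicate block the counts were 12, 7 and 6. Same-numbered bulk libraries share only a number: their correlations ran from -0.128 to 0.031, -0.144 to 0.065 and -0.285 to 0.135 at the 3 times, and 0, 1 and 1 of 6 correlated best with their own number. With the profile score as a covariate the counts were 12, 0 and 8, and without UNx replicates 1 to 5 the 48 h count was 0. Leaving out 1 library gave 12 to 26, 5 to 12 and 7 to 10, and 11 of 22, 5 of 7 and 7 of 10 genes were called without each library.

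The wider replication genes (21, 15 and 5 called) came to 12 at 24 h and 2 at 72 h with the replicate block, to 4, 0 and 2 with the score, to 0 at 48 h without UNx replicates 1 to 5, to 24 at 48 h in 1 fit, and at 72 h to 13 by the Wald test and 3 with no filter. Leaving out 1 library gave 17 to 22, 12 to 21 and 2 to 12. The mitosis genes (11, 13 and 19) came to 7 at 24 h with the replicate block, to 0 at 24 h and 0 at 48 h with the score and to 0 at 48 h without UNx replicates 1 to 5. Leaving out 1 library gave 7 to 14, 11 to 18 and 16 to 20.

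Of genes whose effect differed between 24 and 48 h (5) and between 48 and 72 h (1), 0 and 0 were called with the score, 0 and 0 without UNx replicates 1 to 5, and 7 and 5 without UNx replicate 6 of 48 h. For the second, no filter gave 0 and the replicate block 2. Signs reversed for Pola2 at 48 h (-0.16 with the score, -0.17 without UNx replicates 1 to 5) and, between 24 and 48 h, for Rfc4 (0.25 and 0.11) and Pola2 (-0.37 and -0.067). Apart from fits on fewer libraries, the cause was not tested. In nuclei 0 of the 38 genes were called under every alternative run, and the UNx minus sham share was 0.71, 0.014 and 0.013 percentage points at 2, 5 and 7 genes. The 2 mice a group and the 42291 UMIs of the 38 genes limit every nucleus result.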
